A study of Mus musculus with 34 samples.

Results

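The effect of ozone in estrus was described from 9 of the 34 female mice of the study, the 3 exposed to ozone (O3) and the 6 exposed to filtered air (FA) in that stage of the cycle. The mice were chosen by their labelled exposure and stage alone, without use of any measured value. All were C57BL/6 females (C57BL/6J in the study's methods) of 8 weeks of age that breathed either O3 at 2 ppm or FA over a period of 3 h. Lungs were taken 4 h after exposure. RNA from the whole lung homogenate of each mouse was run on its own real-time PCR array of 84 inflammatory and immune genes. The 25 other mice were exposed in proestrus (5 O3 and 6 FA), metestrus (3 O3 and 4 FA) or diestrus (3 O3 and 4 FA). The measurement is the threshold cycle (Ct), which drops by 1 cycle whenever the amount of RNA doubles, if amplification is complete. Expression is given throughout as -ΔCt, in which the Ct of a gene is subtracted from the mean Ct of 4 reference wells on the same plate (H1, H2, H3, H5), so that a higher value means more mRNA and a difference of 1 is 2-fold. A well with no Ct was set to a Ct of 40.

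Ozone is an oxidant gas that reacts with the lining of the airways. Epithelial cells and macrophages answer its injury with chemokines, small secreted proteins that draw leukocytes from the blood, and an influx of neutrophils into the airspaces is the best known result. Chemokines of the CXC family that bind Cxcr2 act mainly on neutrophils, whereas the CC family acts on monocytes, eosinophils, dendritic cells and lymphocytes. Estrus begins around ovulation and, together with proestrus, makes up the follicular phase of the mouse cycle as the study defined it.

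The deposited tables name wells by plate position, and 20 of the 84 wells could be given a gene. For 17 genes, the difference of mean deposited fold changes between exposures equalled a value printed by the study to within 0.001. The 3 others (Cxcl3, Ccl19 and Ccr2) rest on the colors of a heat map read in earlier work, a weaker basis. Of the 20 genes, 16 were picked by the study as changed by O3 in follicular mice that include these 9, so their direction here is not independent evidence. The 64 other wells are given by position. Wells with a name that would mark the lung or its main cell types were not among the 20, so the labelled tissue could not be checked against markers.

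In lungs of females exposed to O3 in estrus, 12 of the 84 wells were higher than in FA (limma, Benjamini-Hochberg adjusted p under 0.05) and 0 were lower, which is 14.3% of the wells. Without adjustment, 20 wells had p under 0.05 (23.8%). The 12 wells were 8 of the 11 named chemokines (Ccl20, Cxcl5, Cxcl1, Ccl11, Cxcl2, Cxcl10, Ccl2 and Ccl17) together with the cytokine Il6, the enzyme Ptgs2, the receptor Cd14 and the unnamed well E7. In each of the 12, all 3 O3 mice lay above all 6 FA mice. Such a separation was found in 14 of the 84 wells (16.7%), the other 2 being Il1r1 and the unnamed well E8. The opposite, every O3 mouse below every FA mouse, was found for Nos2 alone (1.19% of the wells). These counts depend on reference well H2. Without it, 12 wells lay wholly above FA (14.3%), with E7 and E8 now overlapping, and 6 wholly below (7.14%), namely Nos2, Ltb, Ccr2 and the unnamed wells D2, F9 and G6.

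**Figure D1:**
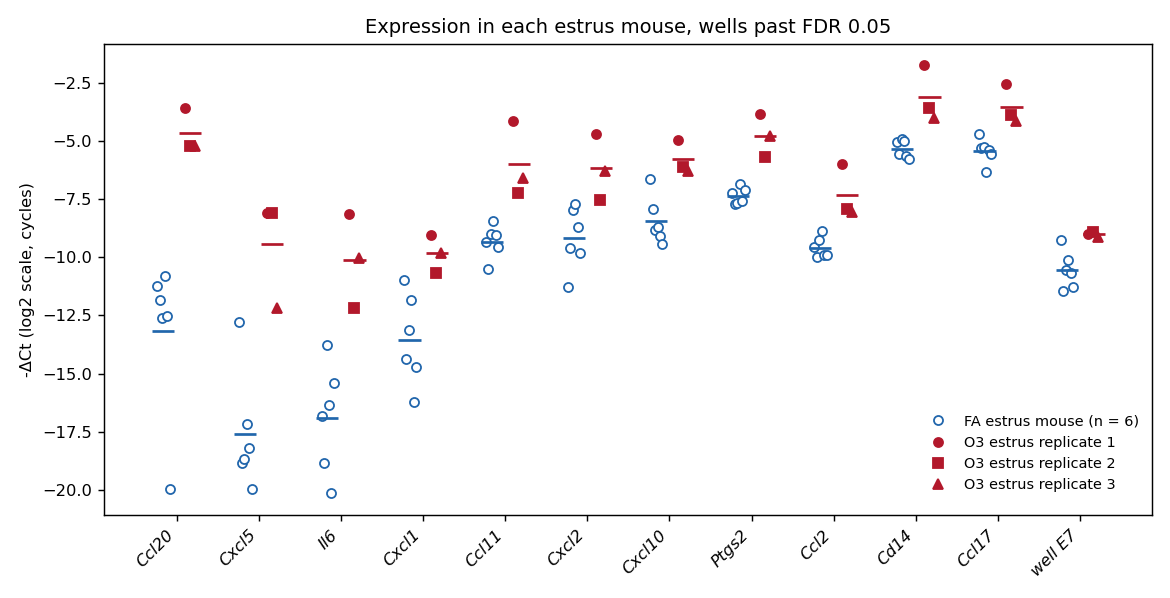
Expression (-ΔCt, log2 scale) of the 12 wells with an adjusted p under 0.05 in each estrus mouse, with open circles for the 6 FA mice, filled symbols for the 3 O3 mice and lines for the group means. The O3 mice lie above the FA mice in every well, and O3 replicate 1 is the highest of the 9 mice in 11 of the 12.

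One O3 mouse stood apart. In O3 replicate 1 the Ct of reference well H2 was 4.0 cycles above the mean of the other 3 reference wells, whereas in the other 8 estrus mice the difference was -1.45 to -0.444 cycles. Leaving H2 out lowers every -ΔCt of this mouse by 1.0 and raises those of the other estrus mice by 0.111 to 0.363. With H2, this mouse was the highest of the 9 in 62 of the 84 wells, and without it in 17. The Ct values of this mouse are also written with up to 8 decimals, those of O3 replicate 2 and FA replicate 1 with 6 and those of the remaining 6 mice with 3.

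**Figure D2:**
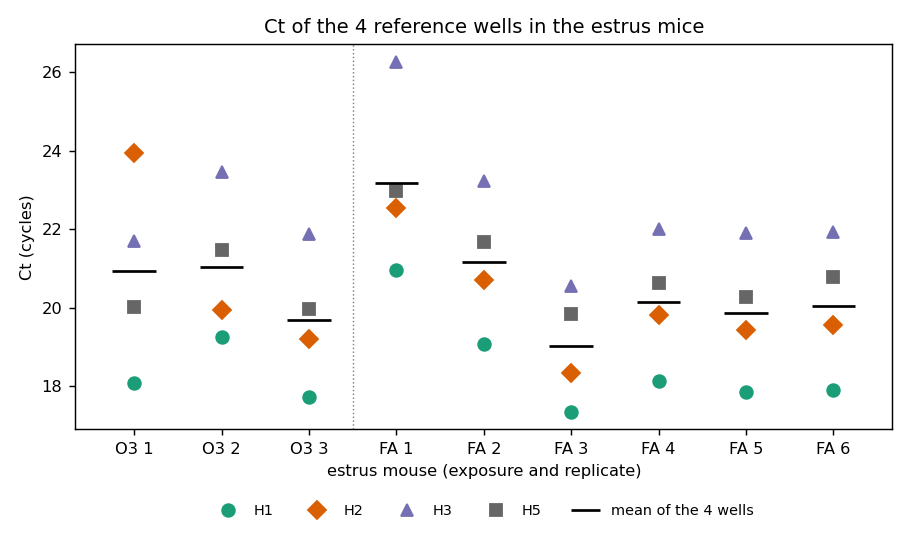
Ct (cycles) of the 4 reference wells in each estrus mouse, with a black line at their mean. H2 lies above the other reference wells in O3 replicate 1 and below H3 and H5 in each of the other 8 mice, and FA replicate 1 has the highest mean, 23.2 cycles.

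The median log2 fold change over all 84 wells was 0.56, and 0.23 without H2. Since the reference is common to all wells, the order of the genes and their distance from that median do not depend on it. Without H2, 11 wells passed the test and 10 of them were among the 12. Cxcl1 (adjusted p = 0.0805, limma) and E7 (0.0622) no longer passed, and Ltb passed as lower. Without O3 replicate 1, 5 of the 12 passed (Ccl20, Cxcl5, Il6, Ptgs2 and E7) and no other well did. Among the mice with 3 decimals (1 O3 and 5 FA, the O3 mouse assumed to vary like the other groups), Cxcl5, Cxcl10 and Ptgs2 passed, with log2 fold changes of 6.38 for Cxcl5 and 2.48 for Cxcl10. The 1 O3 and the 1 FA mouse with 6 decimals differed by 6.00 for Ccl20, 4.67 for Cxcl5 and 4.64 for Il6, values of single mice without a spread of their own. With the number of decimals as a term in the model over all mice, Cxcl1 no longer passed (limma adjusted p = 0.0886) and the other 11 of the 12 did. What the number of decimals stands for is not given in the sources used here. An exact permutation test within estrus, over the 84 ways to split 9 mice into 3 and 6, cannot give a p below 0.0119. No well passed it after Benjamini-Hochberg adjustment (smallest adjusted p = 0.0909), and 19 wells had an unadjusted exact p under 0.05.

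Ccl20, which attracts dendritic cells, Th17 cells and B cells through Ccr6 and is made by airway epithelium, had the largest change of the named genes. The O3 mice had -ΔCt values of -3.60, -5.23 and -5.21, and the FA mice ranged from -19.96 to -10.83 with a median of -12.19. The lowest FA value is a well with no Ct, and even the highest FA mouse was well below the 3 O3 mice. The log2 fold change was 8.49 (SE 1.64, limma adjusted p = 0.000800), or 359-fold. With all Ct values limited to 35 it was 7.65, and with the well without a Ct left missing 7.13.

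The neutrophil-attracting CXC chemokines Cxcl1, Cxcl2, Cxcl3 and Cxcl5, ligands of Cxcr2, had a median log2 fold change of 3.35. Of these 4 genes 3 rose and 0 fell, where 14.3% of the 84 wells rose and 0 fell. All 4 have a name because the study's tables or heat map showed them as changed, so a high share follows from that choice. Their genes are neighbours in one cluster on chromosome 5, with 2 protein-coding genes between Cxcl5 and Cxcl3, 1 between Cxcl3 and Cxcl1 and 0 between Cxcl1 and Cxcl2 in the RefSeq annotation.

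Cxcl5, made largely by epithelial cells, was at -8.09, -8.10 and -12.18 in the O3 mice and at -19.96 to -12.77 in the FA mice (median -18.43), 2 of which had no Ct. O3 replicate 3 was thus close to the highest FA mouse, while the other O3 mice were far above all FA mice. The change was 8.14 on the log2 scale (SE 1.71, limma adjusted p = 0.00117). Its size depends on the wells at the limit of detection: it was 4.97 with Ct values limited to 35 and 7.24 with wells without a Ct left missing.

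Cxcl2, also known as MIP-2, was at -4.70, -7.57 and -6.30 in the O3 mice and at -11.29 to -7.70 in the FA mice (median -9.16). The lowest O3 mouse exceeded the highest FA mouse by a small margin. This was a log2 fold change of 2.99 (SE 0.741, limma adjusted p = 0.00350), or 7.95-fold, and 2.25 without O3 replicate 1 (adjusted p = 0.101).

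Cxcl1, or KC, was at -9.04, -10.66 and -9.82 in the O3 mice. The FA mice spread over -16.22 to -10.99 (median -13.75), with the highest just below the lowest O3 mouse. Its log2 fold change was 3.71 (SE 1.25, limma adjusted p = 0.0419). Cxcl3 was at -7.05, -10.74 and -11.30 in the O3 mice against -18.83 to -10.34 in FA (median -11.13, 1 mouse with no Ct). The groups overlapped, with a log2 fold change of 2.57 (SE 1.45, limma adjusted p = 0.333), and only O3 replicate 1 lay above all FA mice.

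Il6, the cytokine that drives the acute phase response, was at -8.17, -12.17 and -10.05 in the O3 mice. In FA it was at the limit of the assay, from -20.14 to -13.79 with a median of -16.58, and 3 of the 6 mice had no Ct. The groups did not overlap, and the log2 fold change was 6.76 (SE 1.43, limma adjusted p = 0.00117). It was 3.94 with Ct values limited to 35 and 5.06 with wells without a Ct left missing, so the size of the change is uncertain.

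Of 15 listed CC chemokines 6 had a named well, and the others were not read. Of the 6, 4 rose, 0 fell and 2 did not pass, where 14.3% of all 84 wells rose. The 6 had a median log2 fold change of 2.08. Each was named because the study's tables or heat map showed it as changed, so these counts do not describe the family. Besides Ccl20, those that rose were Ccl11, Ccl2 and Ccl17. Ccl11, or eotaxin, which recruits eosinophils, was at -4.17, -7.26 and -6.61 in the O3 mice and at -10.50 to -8.46 in the FA mice (median -9.21). All O3 mice exceeded all FA mice by more than 1 cycle, with a log2 fold change of 3.31 (SE 0.798, limma adjusted p = 0.00330), or 9.93-fold. Without O3 replicate 1 it was 2.39 (adjusted p = 0.101).

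Ccl2, or MCP-1, the main ligand of Ccr2 on monocytes, was at -6.01, -7.93 and -8.05 in the O3 mice against -10.00 to -8.86 in FA (median -9.74), without overlap. Its log2 fold change was 2.26 (SE 0.554, limma adjusted p = 0.00350), or 4.78-fold. Ccl7, a second Ccr2 ligand whose gene lies next to Ccl2 and Ccl11 on chromosome 11, was at -5.87, -7.87 and -6.85 against -9.37 to -6.68 (median -8.56). One FA mouse was within the range of the O3 mice, and the log2 fold change of 1.52 did not pass (SE 0.611, limma adjusted p = 0.0920).

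Ccl17, a ligand of Ccr4 on Th2 cells, was at -2.57, -3.88 and -4.17 in the O3 mice and at -6.35 to -4.70 in FA (median -5.36). All O3 mice were above all FA mice, by a log2 fold change of 1.90 (SE 0.436, limma adjusted p = 0.00269), or 3.73-fold. Ccl19, the Ccr7 ligand that guides dendritic cells and T cells to lymph nodes, was at -1.53, -4.12 and -2.60 against -5.06 to -3.76 (median -4.15). O3 replicate 2 lay within the FA range, and the log2 fold change was 1.60 (SE 0.648, limma adjusted p = 0.0920). Of the interferon-inducible chemokines only Cxcl10 had a named well. This ligand of Cxcr3 on activated T cells was at -4.96, -6.13 and -6.32 in the O3 mice and at -9.44 to -6.66 in FA (median -8.76), a log2 fold change of 2.64 (SE 0.627, limma adjusted p = 0.00330), or 6.23-fold.

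Of the inducible enzymes, Ptgs2 (cyclooxygenase-2, which starts prostaglandin synthesis) rose and Nos2 (inducible nitric oxide synthase) did not pass with a Ct of 40 for wells without one. Ptgs2 was at -3.83, -5.70 and -4.80 in the O3 mice and within the narrow range of -7.72 to -6.87 in FA (median -7.43). The groups were clearly apart, and the log2 fold change was 2.59 (SE 0.506, limma adjusted p = 0.000800), or 6.04-fold. It was 2.27 without H2 and 2.12 without O3 replicate 1, and passed in both cases. Nos2 was at -10.15, -11.61 and -11.23 in the O3 mice, below all FA mice at -9.91 to -9.13 (median -9.41). Its log2 fold change was -1.53 (limma adjusted p = 0.349). The SE of 0.885 rests on the spread within all 8 groups of exposure and stage, and the SD within FA estrus was 0.283. In O3 diestrus the SD was 4.11, where 1 of the 3 mice had no Ct for Nos2 and was set to a Ct of 40. With Ct values limited to 35 or wells without a Ct left missing, the log2 fold change was the same and Nos2 passed as lower (limma adjusted p = 0.0280 and 0.0121). The exact permutation p within estrus was 0.0119, the smallest that 3 against 6 mice can give, and 0.0909 after adjustment over the 84 wells.

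Of 15 listed genes of innate sensing 3 had a named well, and the others were not read. Cd14 rose and Il1r1 and Myd88 did not pass, with a median log2 fold change of 1.01 over the 3. Cd14, the co-receptor for endotoxin on monocytes and macrophages, was at -1.76, -3.61 and -4.02 in the O3 mice and at -5.79 to -4.91 in FA (median -5.31). O3 replicates 2 and 3 were about 1 cycle above the highest FA mouse. Its log2 fold change was 2.21 (SE 0.554, limma adjusted p = 0.00362), or 4.61-fold. Il1r1, the signalling receptor of interleukin-1, was at -3.76, -5.19 and -4.93 against a tight -5.81 to -5.48 in FA (median -5.61). The groups did not overlap, yet the log2 fold change was 1.01 (SE 0.367, limma adjusted p = 0.0619), 0.45 above the median of all wells. Myd88, the adaptor of Toll-like and interleukin-1 receptors, was at -6.50, -6.61 and -4.57 against -6.64 to -5.36 (median -5.69), with a log2 fold change of -0.012 (95% confidence interval -1.25 to 1.22) whose sign turned with other reference wells or other mice. Fos, an immediate early subunit of AP-1, was at -3.30, -5.39 and -4.30 against -6.29 to -5.19 (median -5.64), with O3 replicate 2 inside the FA range. Its log2 fold change of 1.40 was just outside the threshold (SE 0.490, limma adjusted p = 0.0508).

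Ltb and Ccr2 were lower than the median well. Ltb, the lymphotoxin beta chain of lymphocytes, was at -4.80, -5.95 and -5.93 in the O3 mice against -5.38 to -4.22 in FA (median -4.49). With 2 FA mice inside the O3 range, the log2 fold change was -0.91 (SE 0.451, limma adjusted p = 0.211), and -1.24 without H2 (adjusted p = 0.0257), when all 3 O3 mice fell below all FA mice. Ccr2, the Ccl2 receptor of monocytes, was at -7.60, -8.65 and -9.29 against -7.88 to -6.60 (median -7.44), with a log2 fold change of -1.16 (SE 0.554, limma adjusted p = 0.188) and of -1.49 without H2 (adjusted p = 0.0805). Measured from the median of all wells, Ltb stood at -1.47, Ccr2 at -1.72 and Nos2 at -2.09 on the log2 scale. In whole lung, fewer cells of a type and less RNA per cell cannot be told apart. Of the 7 marker genes listed for other cell types, 3 had a named well. These were Ccr2 and Cd14 (monocytes) and Ltb (lymphocytes), with values as given here. The neutrophil markers Cxcr1 and Cxcr2 were not read, so the part of infiltrating cells in these results was not tested.

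**Figure D3:**
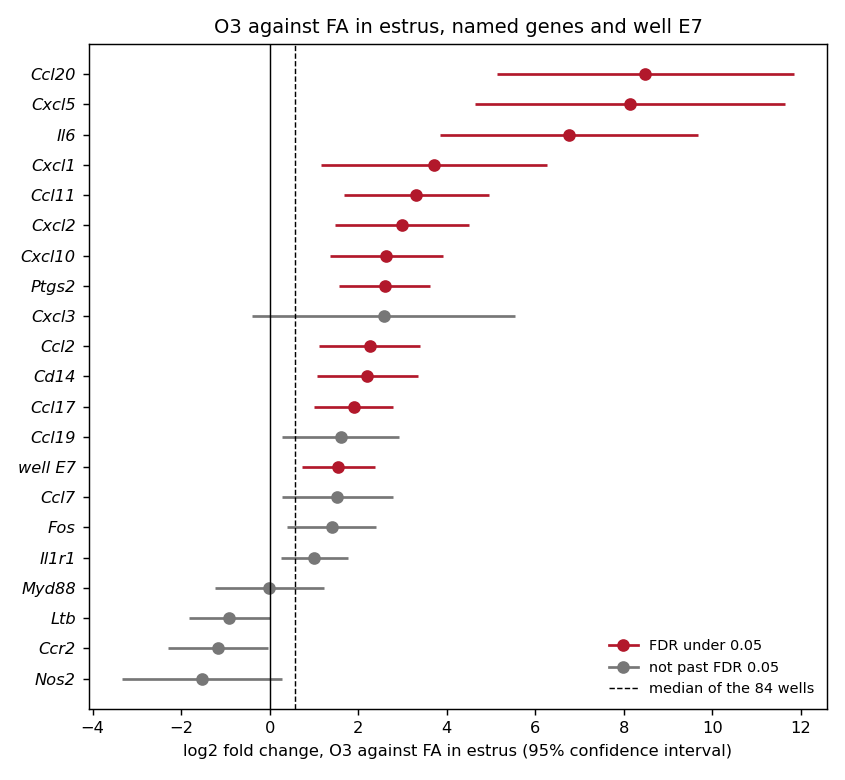
Log2 fold change of O3 against FA in estrus with its 95% confidence interval (limma, 3 against 6 mice) for the 20 named genes and well E7, in red where the adjusted p was under 0.05, with a dashed line at the median of the 84 wells (0.56). Ccl20, Cxcl5 and Il6 have the largest changes and the widest intervals of the genes that passed. The points of Ltb, Ccr2 and Nos2 lie below 0 and that of Myd88 just below it, and none of these genes passed.

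The median log2 fold change was 2.23 over the 20 named wells and 0.32 over the 64 unnamed ones, where it ranged from -1.40 to 3.76. Wells had a name because the study listed them as changed by O3 or showed them in a heat map of its top genes. The contrast of named and unnamed wells follows from that choice and is not a separate result. One unnamed well passed. In E7 the O3 mice were nearly equal at -8.99, -8.92 and -9.11, above the FA mice at -11.44 to -9.28 (median -10.62), with a log2 fold change of 1.55 (SE 0.406, limma adjusted p = 0.00511). It was the only called well in which O3 replicate 1 was not the highest mouse. It passed without that mouse (1.54, adjusted p = 0.0493) and missed without H2 (1.22).

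**Figure D4:**
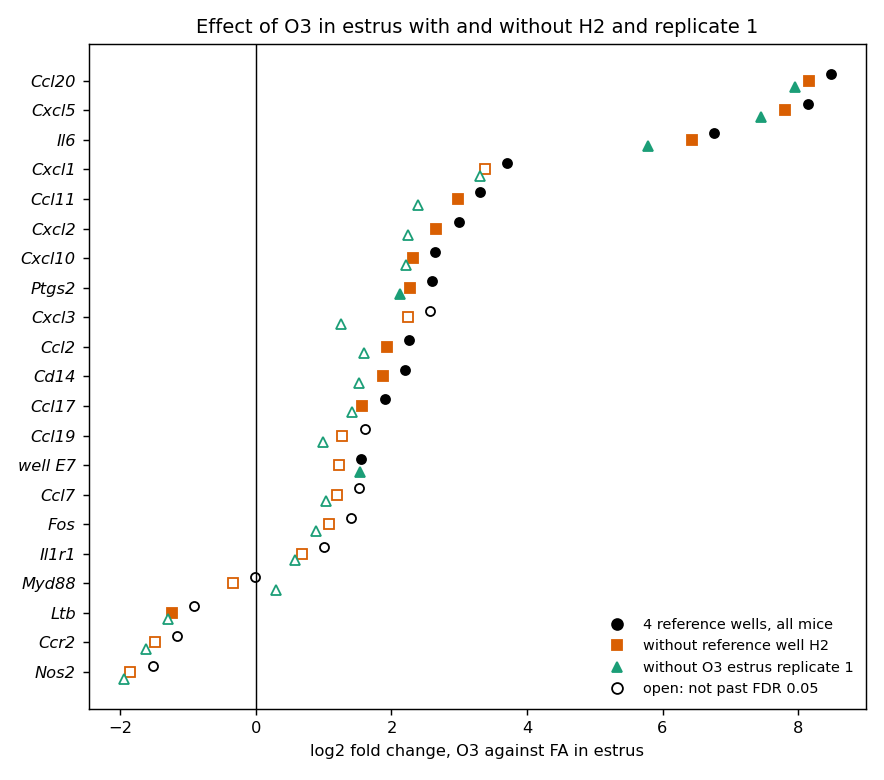
Log2 fold change of O3 against FA in estrus with the 4 reference wells and all mice (circles), without reference well H2 (squares) and without O3 replicate 1 (triangles), filled where the adjusted p was under 0.05. The changes are smaller in both alternatives for every called gene but stay above 0, and Ccl20, Cxcl5, Il6 and Ptgs2 pass in all 3.

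Proximal promoters are shown for the genes with the largest changes, since NF-κB and AP-1 are factors through which many of these chemokines and Il6 are known to be induced. Of the 5 named genes with the largest log2 fold change (Ccl20, Cxcl5, Il6, Cxcl1 and Ccl11), RefSeq windows of 250 bases before to 50 after the start (mouse build GRCm38.p6) were found for Ccl20, Il6 and Cxcl1, all on the plus strand. Both strands were searched for the NF-κB consensus (GGG, a purine, 2 bases of any kind, 2 pyrimidines, then CC) and for the AP-1 motif TGANTCA, and matches are in capitals.
Ccl20, chr1:83116516-83116815: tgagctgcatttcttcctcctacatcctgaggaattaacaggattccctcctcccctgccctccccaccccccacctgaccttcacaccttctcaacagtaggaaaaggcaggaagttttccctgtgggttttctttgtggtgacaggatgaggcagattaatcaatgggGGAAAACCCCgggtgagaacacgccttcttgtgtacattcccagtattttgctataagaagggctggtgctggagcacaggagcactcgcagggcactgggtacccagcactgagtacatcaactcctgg
Il6, chr5:30012864-30013163: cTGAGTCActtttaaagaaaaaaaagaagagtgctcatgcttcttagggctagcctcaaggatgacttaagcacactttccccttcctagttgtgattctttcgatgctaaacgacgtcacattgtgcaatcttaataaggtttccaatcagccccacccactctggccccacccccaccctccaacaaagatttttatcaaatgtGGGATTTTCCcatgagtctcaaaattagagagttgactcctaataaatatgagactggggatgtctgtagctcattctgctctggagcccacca
Cxcl1, chr5:90890995-90891294: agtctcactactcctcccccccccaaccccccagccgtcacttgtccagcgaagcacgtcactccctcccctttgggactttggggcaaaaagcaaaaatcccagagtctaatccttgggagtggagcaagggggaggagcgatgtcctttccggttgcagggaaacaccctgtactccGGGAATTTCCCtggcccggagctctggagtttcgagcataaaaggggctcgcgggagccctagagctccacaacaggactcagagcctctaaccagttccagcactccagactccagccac
In Ccl20 the match lies on the reverse strand with its first base 80 bases before the start. In Il6 the NF-κB match begins 44 bases before the start and an AP-1 match 249 bases before it. In Cxcl1 2 overlapping NF-κB matches, 1 on each strand, begin 71 and 70 bases before the start. Of all 32851 RefSeq promoter windows of this length, 8.46% hold the NF-κB consensus and 7.81% the AP-1 motif. A match describes letters only, and binding was not measured.

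The effect in estrus was compared with that in the other stages through the difference of the effects, in the same model over all 34 mice. The effects of different stages share no mice. No well passed the adjustment for any of the 3 differences (smallest limma adjusted p = 0.980 against proestrus, 0.914 against metestrus and 0.157 against diestrus). Without adjustment, 2, 1 and 14 wells had p under 0.05, which is 2.38%, 1.19% and 16.7% of the wells. For the 12 wells that rose in estrus, the 95% confidence intervals of the differences reached 1.09 to 4.61 on either side for proestrus and 1.22 to 5.15 for metestrus and for diestrus, so differences of several-fold between stages were not detectable with these numbers of mice.

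All 12 wells that rose in estrus had a log2 fold change above 0 in each other stage, and 10, 5 and 5 of them passed there as higher in proestrus, metestrus and diestrus, where 11.9%, 7.14% and 5.95% of the 84 wells did. Ccl20 changed by 8.49 in estrus and by 6.99, 6.75 and 7.14 in those stages, and Il6 by 6.76 against 7.87, 7.67 and 5.96. For Cxcl2 the values were 2.99 in estrus and 3.06, 3.22 and 2.44 in the others. These 3 genes passed in all 4 stages.

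The 12 wells were chosen for a large effect in estrus, which favours larger values there. The difference from diestrus was 3.15 for Ccl11 (95% confidence interval 0.75 to 5.56, unadjusted p = 0.0120 and limma adjusted p = 0.219), whose effect was 3.31 in estrus and 0.16 in diestrus. For Cd14 it was 2.16 (SE 0.815, limma adjusted p = 0.219), from 2.21 in estrus and 0.046 in diestrus. Cxcl10 (1.96), Ccl2 (1.72) and Ptgs2 (1.57) also had an unadjusted p under 0.05, with limma adjusted p = 0.274 for each. The FA diestrus mice were scattered, with an SD of 1.83 for Ccl11 and 1.16 for Cd14, against 0.684 and 0.383 in FA estrus. In FA diestrus replicate 2, H2 was 1.21 cycles above the mean of H1, H3 and H5. Most of the 84 wells, named or not, had a difference from diestrus above 0. The differences given here were not measured from the median well, so a shift common to the wells is included in them. Without H2 the Ccl11 and Cd14 differences were 2.78 and 1.79 (unadjusted p = 0.0189 and 0.0275), and without O3 replicate 1 they were 2.23 and 1.48 (0.0713 and 0.0797). With the number of decimals as a term the Ccl11 and Cd14 differences shrank to 0.76 and 0.87. Those of Cxcl10, Ccl2 and Ptgs2 shrank to 0.61, 0.55 and 0.79. In diestrus all 3 O3 mice had 3 decimals, while 2 FA mice had 3 and 2 had 7. Decimals and exposure thus cannot be fully told apart there, and the term treated 7 and 8 decimals as the same level. None of these named differences from diestrus had an unadjusted limma p under 0.05 with the decimals term. Within the mice with 3 decimals, which hold only 1 O3 estrus mouse, the Ccl11 and Cd14 differences were 1.06 and 0.39. Those of Cxcl10, Ccl2 and Ptgs2 were 1.18, 0.52 and 1.61. Against proestrus, the other stage of the follicular phase, only E7 (1.44) and Ccl17 (1.22) had an unadjusted p under 0.05, with limma adjusted p = 0.980 and 0.981.

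**Figure D5:**
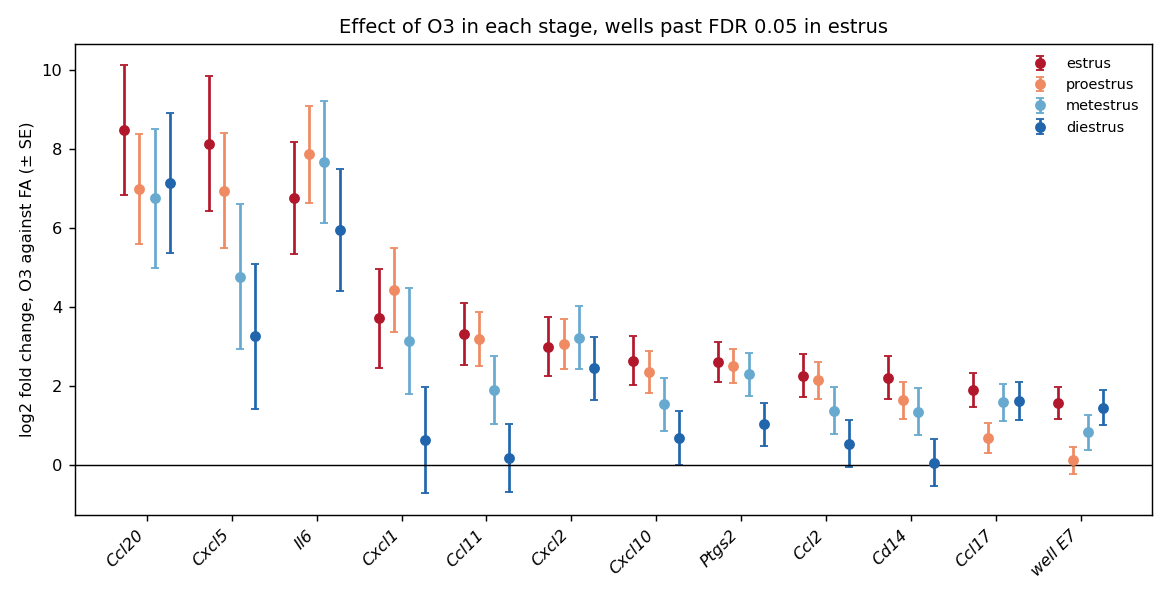
Log2 fold change of O3 against FA (± SE, limma over 34 mice) in estrus and the 3 other stages for the 12 wells that passed in estrus. Every point lies above 0, the values of Ccl20, Il6 and Cxcl2 are near each other in all stages, and those of Ccl11 and Cd14 are lowest in diestrus, at 0.16 and 0.046.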

How the data were processed

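The study isolated whole lung RNA from each mouse, reverse transcribed 400 ng with an RT2 First Strand kit and ran the array on a QuantStudio 12K Flex system. The authors deposited Ct values (cycles, not normalized) and, in a second table, linear fold changes (a ratio to 1 control sample) computed from them as 2 to the power of -ΔΔCt. Both tables give 1 column per mouse, and labels give exposure, stage and replicate number. In the estrus mice 64 of 756 Ct values were missing (8.47%), measured ones ran from 20.8 to 38.3, and 68 of 84 wells had a Ct in all 9. The mean reference Ct was 20.5 ± 0.754 (SD, n = 3) in O3 and 20.6 ± 1.45 (SD, n = 6) in FA. A Ct gives no count of molecules and hence no counting interval, and a log2 fold change assumes complete amplification.

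Expression (-ΔCt) was computed from the Ct values and fitted with limma 3.58.1 in R 4.3.3 as 8 groups of exposure and stage over all 34 mice, two-sided, with Benjamini-Hochberg adjustment over 84 wells (FDR 0.05). limma is the study's tool. Stages were kept apart here, whereas the study pooled them into phases. The fit was tested on simulated data. Other steps used pandas 2.3.3, scipy 1.17.1, numpy 2.4.6 and, for the plots, matplotlib 3.10.9, under Python 3.11.15. Named genes are all wells with an established gene and every unnamed well that passed. The genes and lists were chosen with earlier results of these data known. Replicates are separate mice, and the labels do not give litters or exposure sessions. Deviations of same-numbered O3 and FA mice from their group means were correlated over the 84 wells. The values were 0.164, 0.121 and 0.107 for replicates 1, 2 and 3. Since each was over 0.1, the replicate number was a term of the model over all 34 mice in 1 alternative. That term is shared by every exposure and stage, so it did not pair mice within estrus alone. The labels give only the number, and O3 replicate 2 correlated more with FA replicate 1 (0.391). Alternatives were other reference wells, Ct limits, filters, the deposited fold changes, limma options, the exact permutation test, mice split by the decimals of their Ct values, and each mouse left out. RefSeq tables matched 20 of 20 gene symbols and gave a promoter window for 14.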

Additional observations from a re-analysis of the deposited data

Results flagged for a closer look

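Of 23 sets of estrus values compared within the FA group, 2 held a mouse far from the others, and chance gives about 1 in 20. For Ccl20, FA replicate 6 was at a -ΔCt of -19.96, a well with no Ct, while the other 5 FA mice lay between -12.59 and -10.83. For Cxcl3, FA replicate 2 was at -18.83, also a well with no Ct, against -11.83 to -10.34 in the other 5. Both values follow from the Ct of 40 given to such wells.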

How the results depend on the processing

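The 12 wells past the threshold became 3 when restricted to Ct values with 3 decimals (1 O3 mouse and 5 FA), 5 with 6 decimals (1 O3 mouse and 1 FA, with 4 higher and 1, Nos2, lower), 5 without O3 replicate 1, 7 without the first replicate of both groups (chosen after seeing the data) and 0 by the exact permutation test, by which 19 wells had p under 0.05. A lone mouse was assumed to vary like the other groups. Leaving out 1 mouse at a time gave 5 to 17 wells, and the other alternatives 8 to 17. With the replicate number as a term in the model the count was 12, and no call of a named gene or of E7 changed. Of 731 values of single genes over 35 alternatives, 622 kept their direction and side of the threshold, 66 no longer passed, 26 newly passed and 17 turned sign. Cxcl1 no longer passed in 17 alternatives, E7 in 9, and Fos newly passed in 10. The sign turned for Fos with 6 decimals (-0.20) and for Ltb with H2 alone (0.070). For Myd88 it turned with H1 to H5 (0.048), H2 alone (0.97) and without H1 (0.046), H3 (0.084) or H5 (0.16). It also turned for Myd88 with the linear fold changes (0.41), decimals as a term (0.59), 3 decimals (1.21) and without both first replicates (0.19). With 1 mouse left out, the Myd88 value ran from -0.67 to 0.35, and its sign turned in only some of these fits. The cause was not tested. The count of differences between stages remained 0 in every alternative.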

Other observations

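The number of wells with a Ct overlapped between the exposures, and no test of it was run. Among the 84 array wells, the O3 estrus mice had a Ct in 78 to 83 (median 78) and the FA estrus mice in 73 to 80 (median 74.5). Of the 16 wells without a Ct in at least 1 of the 9 mice, 7 had a Ct in all 3 O3 mice but not in all FA mice (Ccl20, Cxcl3, Cxcl5, Il6 and the unnamed wells B1, E6 and G8), and 0 had the reverse. With 6 FA and 3 O3 mice, a missing Ct in at least 1 mouse is likelier in FA from the group size alone. The unnamed wells D10 and E5 had a Ct in O3 replicate 1 alone. Well E6 had the largest log2 fold change of the unnamed wells, 3.76, with 3 of 6 FA mice without a Ct and a limma adjusted p of 0.158. These 3 wells were picked after their values were seen.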
